A study of Mus musculus with 2 samples.

Results

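Blood vessel endothelial cells were a rare population in the cell suspensions of mouse carotid arteries that had been injured with a wire. They were picked from single-cell RNA counts by 2 genes of endothelial cell junctions, Pecam1 and Cdh5. A member had at least 3 UMIs (unique molecular identifiers, counted transcripts) over Pecam1 and Cdh5 with at least 1 from Cdh5, no UMI of Prox1, Mmrn1 or Ptprc, and at most 2 of Myh11. Of 13436 kept barcodes, 70 were members, 28 of 8009 at 4 weeks and 42 of 5427 at 2 weeks. That is 0.350% of kept barcodes at 4 weeks (exact Clopper-Pearson interval 0.232 to 0.505%) and 0.774% at 2 weeks (0.558 to 1.04%). These shares are of sorted suspensions, and the digestion and the sort can set them.

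The study profiled male C57BL/6J mice, 8 weeks of age, by droplet single-cell RNA sequencing 28 days (4 weeks) and 14 days (2 weeks) after a guide wire had been drawn through the carotid artery to strip its endothelium. Both groups carried the injury, no uninjured artery was analysed here, and each time is 1 library, for which the series design gives 18 mice. No difference between the times therefore has a replicate check, no test was made, and a cell cannot be traced to an animal. The adventitia was separated from media and neointima, the pieces were digested with papain, and live Hoechst-positive cells were sorted. The labels name the carotid artery as tissue but also speak of aortic grafts, and they name both the left and the right side.

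The endothelium is the single layer of cells that lines vessels, sets their permeability and tone, keeps blood fluid and lets leukocytes through. Arterial endothelium carries Notch ligands and the connexins Gja4 and Gja5, whereas venous endothelium expresses the nuclear receptor Nr2f2 and, after activation, the selectins Selp and Sele that slow rolling leukocytes. After a wire injury the lumen is re-covered by endothelium that migrates in from the uninjured edges, while small vessels in and around the wall have endothelium of their own.

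Members of the 4-week library had 3356 to 32146 UMIs with a median of 9243, and those of the 2-week library 4039 to 60699 with a median of 13682.5. Their summed counts were 301926 and 652405 UMIs. There were 8 barcodes that occurred in both libraries, and no member barcode did. Genes of the thymus were present in the other kept cells, where the summed level of 6 thymocyte genes was 367 CPM (UMIs per 1000000) at 4 weeks and 759 CPM at 2 weeks. Which tissue and which vessels the members came from was not tested.

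The genes Pecam1, Cdh5, Prox1, Mmrn1, Ptprc and Myh11 chose the members, and their values are a description. Pecam1 had 0 to 42 UMIs per member at 4 weeks (median 14) and 0 to 51 at 2 weeks (median 16.5). Cdh5, the vascular cadherin that joins endothelial cells, had 1 to 21 UMIs (median 4) and 1 to 33 (median 9). No member at 4 weeks and 2 at 2 weeks sat exactly at the minimum of 3, and 1 and 2 barcodes with a Cdh5 UMI that met the other limits fell just short of it with 2. The limits on Prox1 and Mmrn1 set aside 23 and 34 of the 61 and 97 barcodes that passed on Pecam1 and Cdh5, and the limit on Ptprc, the leukocyte gene, 13 and 27.

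Most members had many endothelial genes that the rule did not use. Of 20 further pan-endothelial genes, a member had UMIs of a median of 16 at 4 weeks (2 to 19) and 17 at 2 weeks (0 to 20). Egfl7, which encodes a protein secreted by endothelium, was detected in 26 of 28 and 39 of 42 members, against 0.458% and 1.38% of leukocytes after thinning to 4900 UMIs (88.0% and 87.2% of thinned members). Emcn, a sialomucin of veins and capillaries, was detected in 24 of 28 and 36 of 42, and Kdr, the main VEGF receptor, in 12 of 28 and 28 of 42. Markers of leukocytes were low in members, while those of fibroblasts, smooth muscle and epithelium were not low throughout. Neutrophil genes summed to 9.94 CPM at 4 weeks and 9.20 CPM at 2 weeks, T cell genes to 13.2 and 13.8 CPM, and macrophage genes to 46.4 and 216 CPM, against 1424 and 7200 CPM for macrophage genes in other kept cells. The 8 smooth muscle genes summed to 1196 and 523 CPM in members, against 455 and 1632 CPM in other kept cells, and 1 member held 70.9% and 41.9% of these UMIs. The 8 fibroblast genes summed to 4846 and 6462 CPM, against 22044 and 20551 CPM in other kept cells. The 8 pericyte genes summed to 99.4 CPM in 11 members and 42.9 CPM in 10 members, against 232 and 215 CPM, with Rgs5, Higd1b and Cox4i2 at 0 and Pdgfrb, which fibroblasts also express, at 16 and 8 UMIs. The part of these cell types in the results was not tested.

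A few members went against the label. At 4 weeks 2 members, and at 2 weeks 4, had no Pecam1 UMI and entered through 4 to 5 and 3 to 5 UMIs of Cdh5. They had 2 to 3 and 0 to 8 of the 20 pan-endothelial genes, while members with Pecam1 had at least 11 and 10. They held 308 to 345 and 204 to 1310 UMIs of the fibroblast genes Col1a1, Col3a1 and Dcn, where members with Pecam1 had medians of 4 and 2. These 6 cells made up 7.24% of member UMIs at 4 weeks and 19.8% at 2 weeks, and all 6 had Nr2f2. For scale, Cdh5 was detected in 7 of 2640 barcodes at 4 weeks and 8 of 945 at 2 weeks that had Pdgfra and at least 3 UMIs of Dcn but no Ptprc. Counts are given for all 70 members as the rule has it, and for the 26 and 38 members with Pecam1 where that matters.

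**Figure D1:**
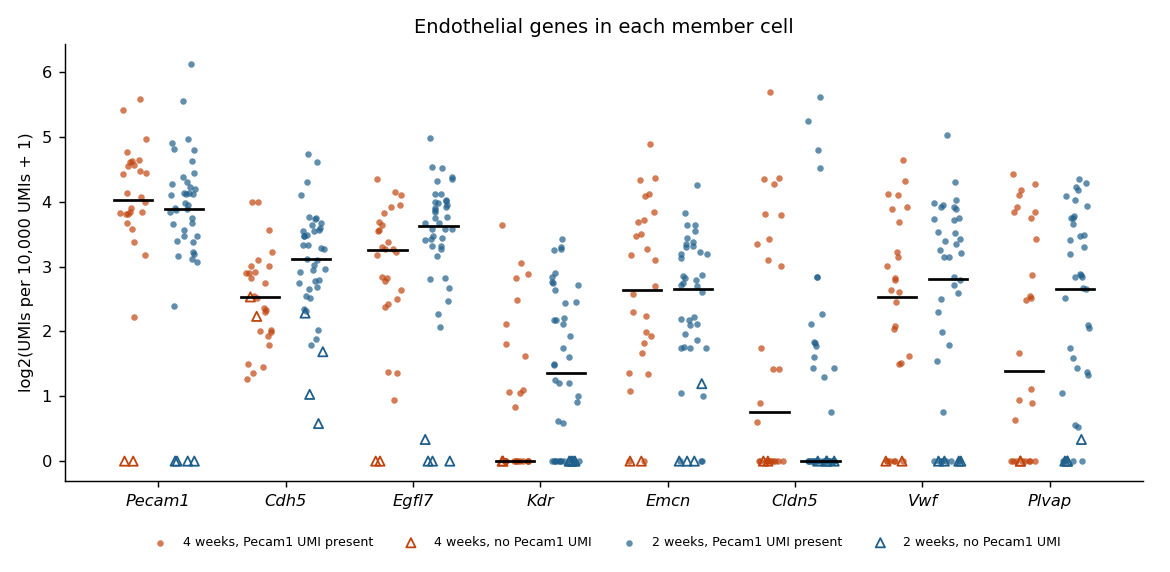
Level of 8 endothelial genes in each member cell, as log2 of UMIs per 10000 UMIs plus 1, with 4 weeks (28 cells) to the left of 2 weeks (42 cells) for each gene and black bars at the medians. Open triangles are the 2 and 4 members with no Pecam1 UMI, which also lie at 0 for most of the other genes apart from Cdh5.

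Upstream sequences are shown for 4 genes that members expressed far above other cells: the sialomucin Emcn, the guidance receptor Robo4, the secreted factor Egfl7 and the selectin Sele. Each line is the 250 bases before the RefSeq start (GRCm38.p6, plus strand), for Emcn chr3:137340828-137341077, for Robo4 chr9:37401722-37401971, for 1 of 3 Egfl7 starts chr2:26583615-26583864 and for Sele chr1:164047984-164048233. Capitals mark AGGAAG or its reverse complement CTTCCT, letters bound by ETS family factors such as Erg and Fli1.
Emcn: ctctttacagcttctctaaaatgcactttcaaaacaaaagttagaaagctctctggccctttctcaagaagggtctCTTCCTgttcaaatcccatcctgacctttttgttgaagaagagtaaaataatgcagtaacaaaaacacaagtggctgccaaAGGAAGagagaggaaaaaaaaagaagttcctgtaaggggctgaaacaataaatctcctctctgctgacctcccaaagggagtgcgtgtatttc
Robo4: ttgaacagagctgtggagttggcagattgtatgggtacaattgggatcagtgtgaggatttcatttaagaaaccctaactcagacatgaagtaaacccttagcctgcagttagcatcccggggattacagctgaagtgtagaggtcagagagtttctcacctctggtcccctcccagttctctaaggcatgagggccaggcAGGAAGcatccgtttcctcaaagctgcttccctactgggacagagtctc
Egfl7: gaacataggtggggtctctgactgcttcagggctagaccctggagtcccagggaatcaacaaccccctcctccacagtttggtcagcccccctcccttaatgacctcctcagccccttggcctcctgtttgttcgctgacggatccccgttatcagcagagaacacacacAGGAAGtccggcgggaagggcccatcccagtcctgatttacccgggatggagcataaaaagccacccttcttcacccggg
Sele: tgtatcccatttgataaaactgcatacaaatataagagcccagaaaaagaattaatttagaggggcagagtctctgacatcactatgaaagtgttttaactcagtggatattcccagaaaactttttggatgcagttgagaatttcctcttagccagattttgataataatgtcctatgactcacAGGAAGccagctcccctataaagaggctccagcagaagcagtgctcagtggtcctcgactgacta

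The match nearest the start lay 93 bases before it in Emcn, 49 in Robo4, 80 in Egfl7 and 65 in Sele, counted from the first base of the match. Of the 20 genes highest in members, 11 had an entry in the table and 10 of these held a match, the exception being Tmem252. The share of all 27025 genes in the table with a match in the same window, on either strand, was 32.3%. The letters were chosen with these sequences already seen, and a match is a description of the letters. Kdr had an entry and no match, and Cdh5, Pecam1, Vwf, Esam and Sox17 are named only.

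Over the other kept cells of their own library, 466 of 2572 genes with enough UMIs were at least 2-fold higher in members in both libraries (18.1%), and 59 were at least 2-fold lower (2.29%). Of the 20 pan-endothelial genes, 19 were among those higher. The 20 genes with the largest ratios in both libraries included adhesion genes (Selp, Sele, Cdh5, Esam), transcription factor genes (Sox17, Sox18, Lhx6), receptor genes (Aplnr, Robo4, Adgrl4, Ptprb) and the clotting factor gene Vwf. Selp stood at 871 CPM in members at 4 weeks against 0.875 CPM in other cells, and at 2351 CPM against 6.79 CPM at 2 weeks. The log2 ratio of Sox17, which encodes a transcription factor of arterial endothelium, was 10.20 at 4 weeks (exact binomial interval 9.31 to 11.19, counting error only) and 8.68 at 2 weeks (7.93 to 9.50). For Emcn it was 9.01 (8.67 to 9.37) and 8.27 (7.96 to 8.59), and for Vwf 9.15 (8.76 to 9.56) and 7.34 (7.11 to 7.58). For Selp, Sele, Emcn, Adgrl4, Arhgef15, Ptprb, Vwf, Cdh5 and Esam the ratio was higher at 4 weeks, with intervals that did not overlap. In each case the level in other cells was the lower one at 4 weeks, for Vwf 0.948 against 3.41 CPM. Other cells include the barcodes that passed on Pecam1 and Cdh5 but were set aside by Prox1, Mmrn1 or Ptprc. Members included, 77 kept barcodes at 4 weeks and 132 at 2 weeks had a Cdh5 UMI. The part of the barcodes set aside in these ratios was not tested.

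**Figure D2:**
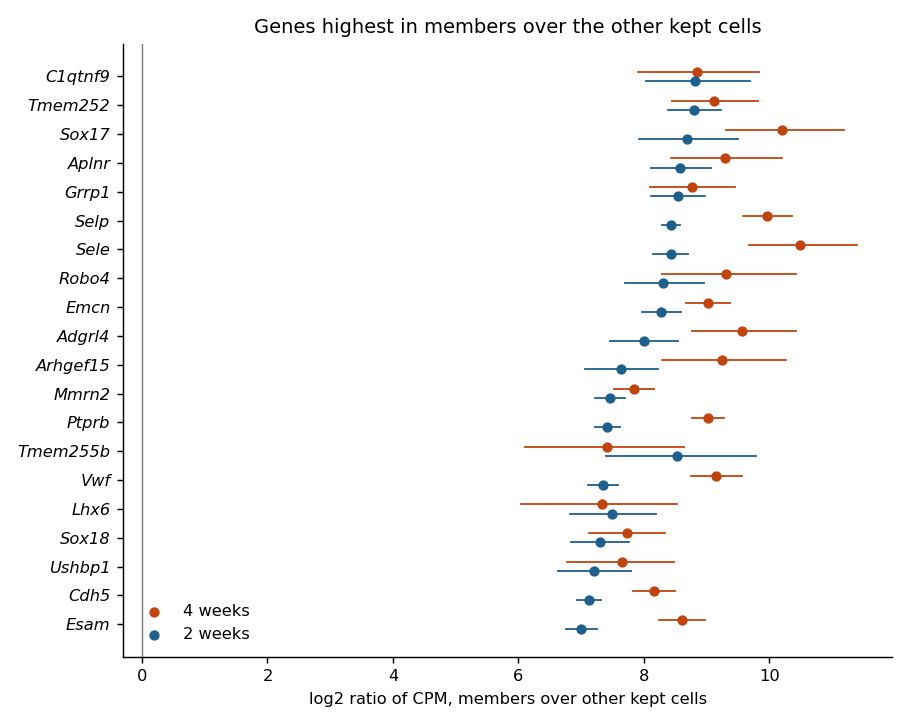
Log2 ratio of CPM in members over the other kept cells of the same library for the 20 genes with the highest smaller ratio, 4 weeks above 2 weeks, with exact binomial intervals. The ratios run up to 10.49 for Sele at 4 weeks, and Cdh5 was part of the rule.

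Lymphatic endothelium, which was kept apart by Prox1 and Mmrn1, offered the nearest other population (20 barcodes at 4 weeks, 28 at 2 weeks). Claudin gene Cldn5 was lower in members, at 467 CPM against 3104 CPM in the lymphatic gate at 4 weeks and 262 against 2520 CPM at 2 weeks. Lyve1, the hyaluronan receptor gene of lymphatics, was at 19.9 against 1707 CPM and 13.8 against 1037 CPM. In the other direction, Vwf was at 540 against 0 CPM and 555 against 150 CPM, and Plvap, the diaphragm protein of fenestrated capillaries and venules, at 619 against 208 CPM and 592 against 215 CPM. Egfl7 was higher in the lymphatic gate at both times, with 742 in members against 945 CPM there at 4 weeks and 915 against 1361 CPM at 2 weeks.

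Members differed in their balance of arterial and venous genes. All 28 members at 4 weeks had a UMI of both lists, and at 2 weeks 39 of 42 had an arterial and 41 of 42 a venous gene. At 4 weeks 14 of 28 members had more of the 12 arterial than of the 8 venous genes and 10 had more venous genes. At 2 weeks 10 of 42 had more arterial genes and 27 more venous genes. The exact interval of the share with more arterial genes was 30.6 to 69.4% at 4 weeks and 12.1 to 39.5% at 2 weeks. After thinning each member to 4900 UMIs, which left out 3 members at each time, 10 of 25 and 9 of 39 had more arterial genes, and 11 and 28 more venous genes. At equal depth the gap was smaller, the intervals overlapped with and without thinning, and 6 members at each time lay within 1 gene of a tie before thinning.

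**Figure D3:**
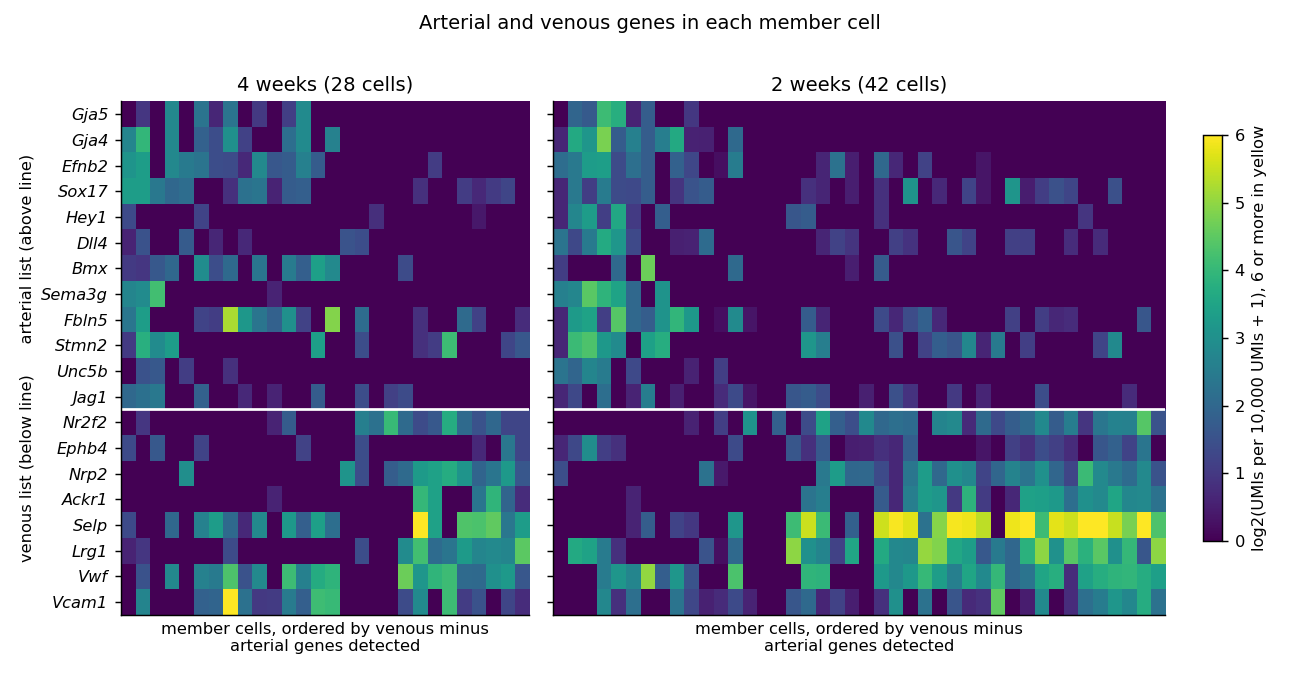
Level of 12 arterial genes (above the white line) and 8 venous genes (below) in each member, as log2 of UMIs per 10000 UMIs plus 1, at 4 weeks on the left and 2 weeks on the right. Within each panel cells are ordered by venous minus arterial genes detected, and Gja5, Gja4 and Sema3g lie mostly in the left-hand cells while Nr2f2, Ackr1 and the highest Selp levels lie to the right.

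Nr2f2, the nuclear receptor gene of venous identity, was detected in 15 of 28 members at 4 weeks and 28 of 42 at 2 weeks. Members with Nr2f2 included all 2 and 4 members without Pecam1. Those cells held 21867 of the 172397 UMIs of this group at 4 weeks and 129392 of 494286 at 2 weeks. Their UMIs lower the CPM of genes they lack in members with Nr2f2. Gja4, which encodes an arterial gap junction protein, was detected together with Nr2f2 in 2 members at 4 weeks and 1 at 2 weeks, and without it in 8 and 11. In members with Nr2f2, Sele, whose product captures leukocytes on activated endothelium, was at 447 CPM at 4 weeks and 829 CPM at 2 weeks, against 15.4 and 19.0 CPM in members without it. Ackr1, the chemokine receptor of venules, was at 342 and 340 CPM with Nr2f2 and at 0 and 50.6 CPM without. Cldn5 went the other way, with 168 and 32.4 CPM in members with Nr2f2 against 865 and 980 CPM in members without. Gja5 stood at 11.6 and 4.05 CPM against 131 and 228 CPM. Members with and without Nr2f2 had median depths of 9257 and 8736 UMIs at 4 weeks and of 15279.5 and 8753.5 UMIs at 2 weeks, and the part of depth in this split was not tested.

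Some genes crossed this division. Sox17 was detected with Nr2f2 in 8 members at 4 weeks and 15 at 2 weeks, and without it in 8 and 9. Selp was found together with Bmx, an arterial kinase gene, in 10 of the 13 members with Bmx at 4 weeks and 4 of 6 at 2 weeks. It was also found in 9 of the 10 members with Gja4 at 4 weeks and in 5 of 12 at 2 weeks. Members without Nr2f2 had Selp at 347 CPM at 4 weeks and 133 CPM at 2 weeks. Vwf was at 528 and 568 CPM in members with Nr2f2 and at 556 and 512 CPM in members without. The members without Pecam1, which all had Nr2f2, had no UMI of Vwf and so lower its level in members with Nr2f2.

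Between the times, 6392 genes had at least 20 UMIs over both sets of members. At 4 weeks 297 of them were at least 2-fold higher than at 2 weeks (4.65%) and 640 at least 2-fold lower (10.0%), with a median log2 ratio of -0.08. In members with Pecam1 alone, 317 of 5577 genes were higher (5.68%) and 498 lower (8.93%). The Pecam1-negative cells held the larger share of UMIs at 2 weeks, and the ratio of Egfl7 was -0.30 with them and -0.51 without them.

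Genes that met the naming rule with higher levels at 4 weeks were led by Fmo2, which encodes a flavin monooxygenase (chr1:162874317-162898726 in mm10), with 782 CPM at 4 weeks (exact Poisson interval 685 to 888) against 96.6 CPM at 2 weeks (74.2 to 124), a log2 ratio of 3.02. It was detected in 20 of 28 members at 4 weeks and 12 of 42 at 2 weeks. Apoe, the apolipoprotein gene, was detected in 27 of 28 and 41 of 42 members and stood at 4677 CPM (4436 to 4927) against 736 CPM (671 to 805), a ratio of 2.67. Cytl1, a secreted cytokine-like gene, had 457 UMIs in 10 members at 4 weeks and 139 in 7 members at 2 weeks, 1 of which held 51.1% of them.

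The next genes by the same measure were Pde3a (2.38), which breaks down cyclic nucleotides, Ptgis (2.11), the prostacyclin synthase gene, Edn1 (1.93), the gene of the constrictor peptide endothelin, Synm (1.86), Clu (1.86), Efna5 (1.80), Pam (1.78) and Enpp6 (1.76). Edn1 was at 934 CPM (828 to 1050) in 19 members at 4 weeks and at 245 CPM (209 to 286) in 22 members at 2 weeks. Fmo2 was higher at 4 weeks both with Nr2f2 (951 against 125 CPM) and without (556 against 6.32 CPM, the last from 1 UMI). The same held for Apoe, with 2633 against 564 CPM and 7396 against 1271 CPM. Other kept cells had Fmo2 at 288 and 207 CPM and Apoe at 1326 and 4177 CPM, and the part of RNA from those cells was not tested. By contrast Pde3a was at 5.80 against 24.3 CPM in members with Nr2f2 and at 309 against 31.6 CPM in members without.

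Among genes that met the naming rule, the lowest ratio was that of Csf3, which encodes the granulocyte growth factor G-CSF. It had no UMI in 28 members at 4 weeks and 129 UMIs in 13 of 42 members at 2 weeks (198 CPM, 165 to 235). With the 0 at 4 weeks read as 3 UMIs, the log2 ratio was -4.31, and the upper limit of its interval was -4.00. Igfbp3, an IGF binding protein gene, was at 36.4 CPM (18.2 to 65.2) in 5 members against 530 CPM (476 to 589) in 19, a ratio of -3.86. Rcan1, a feedback inhibitor of calcineurin that VEGF induces, was at 33.1 against 182 CPM (-2.46), and the protease gene Adamts9 at 49.7 against 256 CPM (-2.37).

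Other low genes were Pgs1 (-2.89), Rnf19b (-2.19), the homeobox gene Meox1 (-2.18), Tifa (-2.17), an adaptor of NF-kB signalling, the histone demethylase gene Kdm6b (-2.14), the kinase gene Abl2 (-2.11), Zfp46 (-2.08) and Mesdc1 (-2.00). Kdm6b was detected in 10 of 28 members at 4 weeks and 37 of 42 at 2 weeks. By the naming rule no single member held over 25% of the 2-week UMIs of any of these genes. In all, 45 genes met the naming rule with higher levels and 143 with lower levels.

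**Figure D4:**
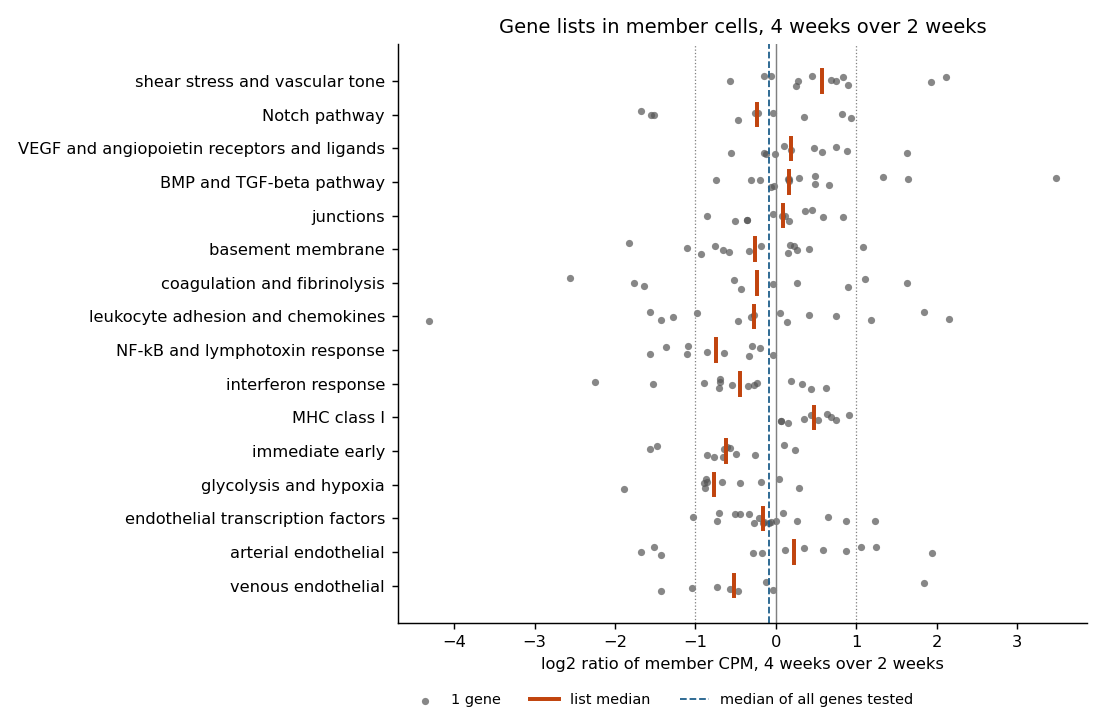
Log2 ratio of member CPM at 4 weeks over 2 weeks for every gene with at least 20 UMIs in 16 gene lists (grey points), with list medians in red and the median of all 6392 genes, -0.08, as a dashed line. Dotted lines mark 2-fold, most genes lie between them, and the point at -4.31 is Csf3, whose count of 0 at 4 weeks was read as 3.

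Leukocyte adhesion genes differed in both directions. Of 15 measured, 3 were at least 2-fold higher at 4 weeks and 4 lower, with a median of -0.27, against 4.65% and 10.0% of all genes. In members with Pecam1 4 were higher and 5 lower, and the median had the opposite sign, at 0.12. Selp (chr1:164115264-164150026) was at 871 CPM (769 to 983) at 4 weeks and 2351 CPM (2235 to 2472) at 2 weeks, a ratio of -1.43. Sele, which lies nearby (chr1:164048234-164057677), was at 262 CPM in 8 members and 633 CPM in 23 members (-1.27). The share of thinned members with a Sele UMI was 20.0% at 4 weeks (5 of 25) and 53.8% at 2 weeks (21 of 39), with leukocytes at 0.0764% and 0.0431%. Within members with Nr2f2 Selp was also lower, at 1265 against 3061 CPM, whereas in members without Nr2f2 the ratio had the opposite sign, at 1.39.

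Cxcl10, an interferon-induced chemokine gene, was at 89.4 CPM at 4 weeks, 85.2% of it in 1 member, and 265 CPM at 2 weeks (-1.57). Vcam1, which holds leukocytes through integrins, was at 706 against 196 CPM (1.85), but 1 member held 62.9% of its 213 UMIs at 4 weeks. Csf1, the macrophage growth factor gene, was at 232 CPM (181 to 293) in 10 members and 52.1 CPM (36.1 to 72.8) in 14 members. Its ratio was 2.15, but it did not meet the naming rule. The chemokine gene Cx3cl1 was at 62.9 against 27.6 CPM (1.19). Icam1 was at 202 and 251 CPM, with an interval of the ratio that included 0.

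Target and signalling genes of NF-kB, the transcription factor of inflammatory activation, had a median ratio of -0.75, with 4 of 10 genes lower at 4 weeks (10.0% of all genes) and 0 higher, and 3 of 10 lower in members with Pecam1. Nfkbia, the inhibitor that NF-kB itself induces, was at 980 CPM (872 to 1099) at 4 weeks and 2085 CPM (1975 to 2198) at 2 weeks, a ratio of -1.09. It was at 1392 against 2229 CPM in members with Nr2f2 and at 432 against 1632 CPM in members without. The feedback gene Tnfaip3 was at 53.0 against 156 CPM (-1.56) and the lymphotoxin receptor gene Ltbr at 29.8 against 76.6 CPM (-1.36). Nfkb2 had a ratio of -1.11, and of -0.76 in members with Pecam1.

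Immediate early genes, which tissue digestion also induces, had a median ratio of -0.63, with 2 of 12 lower and 0 higher, where 10.0% of all genes were lower. In members with Pecam1 3 of 12 were lower, where 8.93% of all genes were. Atf3 was at 262 against 774 CPM (-1.56) and Nr4a1 at 89.4 against 248 CPM (-1.47). Their part in the inflammatory differences was not tested. In the interferon response list 2 of 14 genes were lower and 0 higher (median -0.45), near the 10.0% lower among all genes. In members with Pecam1 3 of 14 were lower (21.4%), beside 8.93% of all genes. With all members the lower genes were the transcription factor genes Irf1, at 106 against 305 CPM (-1.53), and Irf7, at 13.2 against 62.8 CPM (-2.25). None of 10 MHC class I genes passed 2-fold in either direction, with a median of 0.48. H2-K1 was at 1716 against 1021 CPM (0.75).

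The series title names tertiary lymphoid organs. High endothelial venules, the entry vessels of lymphoid tissue, have their own sulfated ligands for L-selectin. Glycam1, which encodes such a ligand, had no UMI in members at 4 weeks and 8 UMIs in 5 members at 2 weeks. Fut7 was at 0 in both libraries, Madcam1 had 0 and 1 UMIs, and Chst4, the sulfotransferase gene, had 1 and 7. Other genes of the list were detected, with Enpp2 at 30 and 97 UMIs, Ubd at 8 and 64, Gcnt1 at 22 and 6, Chst2 at 10 and 22 and Ltbr at 9 and 50. The 9 genes summed to 265 and 391 CPM in members, against 67.6 and 66.7 CPM in other kept cells. A single member held 36.25% of these UMIs at 4 weeks and 21.6% at 2 weeks. Between the times 1 of 5 was higher and 2 lower, where 4.65% of all genes were higher and 10.0% lower. At these depths a level of Glycam1 below 9.94 CPM at 4 weeks was not detectable, taking 3 UMIs as the limit.

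Of the 12 arterial genes, 3 were higher at 4 weeks and 3 lower (median 0.23), where 4.65% of all genes were higher and 10.0% lower. In members with Pecam1 the counts were 2 and 3. Those higher were Bmx at 129 against 33.7 CPM (1.94), the elastic fibre gene Fbln5 at 467 against 196 CPM (1.25) and the ephrin gene Efnb2 at 192 against 92.0 CPM (1.06). Those lower were the Notch ligand gene Dll4 at 29.8 CPM (13.6 to 56.6) against 95 CPM (72.9 to 122), a ratio of -1.67, the Notch target Hey1 (-1.51) and the netrin receptor gene Unc5b (-1.42). In members without Nr2f2 the levels of Dll4 were 46.3 against 272 CPM and those of Hey1 30.9 against 202 CPM. Bmx was there at 255 against 114 CPM. Notch4, the endothelial Notch receptor gene, was at 19.9 against 58.2 CPM (-1.55), and of 10 Notch pathway genes 3 were lower and 0 higher, or 3 and 1 in members with Pecam1. Fbln5 turned to -1.80 in the members with under 3 UMIs of fibroblast genes, which were only 9 at 4 weeks and 20 at 2 weeks.

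BMP4, a ligand of the TGF-beta family that disturbed flow is known to induce in endothelium, had the highest ratio of all list genes named here. Bmp4 (chr14:46383520-46390669) was at 636 CPM (549 to 733) at 4 weeks and 56.7 CPM (39.9 to 78.2) at 2 weeks, a ratio of 3.49 (2.97 to 4.04). It had a UMI in 16 of 28 and 16 of 42 members, and in 44.0% and 12.8% after thinning. A single member held 50 of the 192 UMIs at 4 weeks, just above the limit of 25% for naming by size. Most of the 4-week level lay in members without Nr2f2, at 1312 CPM against 108 CPM at 2 weeks, and members with Nr2f2 had 128 against 40.5 CPM. Of 15 BMP and TGF-beta genes, 3 were higher (Bmp4, the inhibitory Smad6 at 1.64 and the ligand gene Tgfb2 at 1.33) and 0 lower, where 4.65% of all genes were higher. The receptor genes Eng, Acvrl1 and Tgfbr2 had ratios of 0.29, -0.03 and 0.16.

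**Figure D5:**
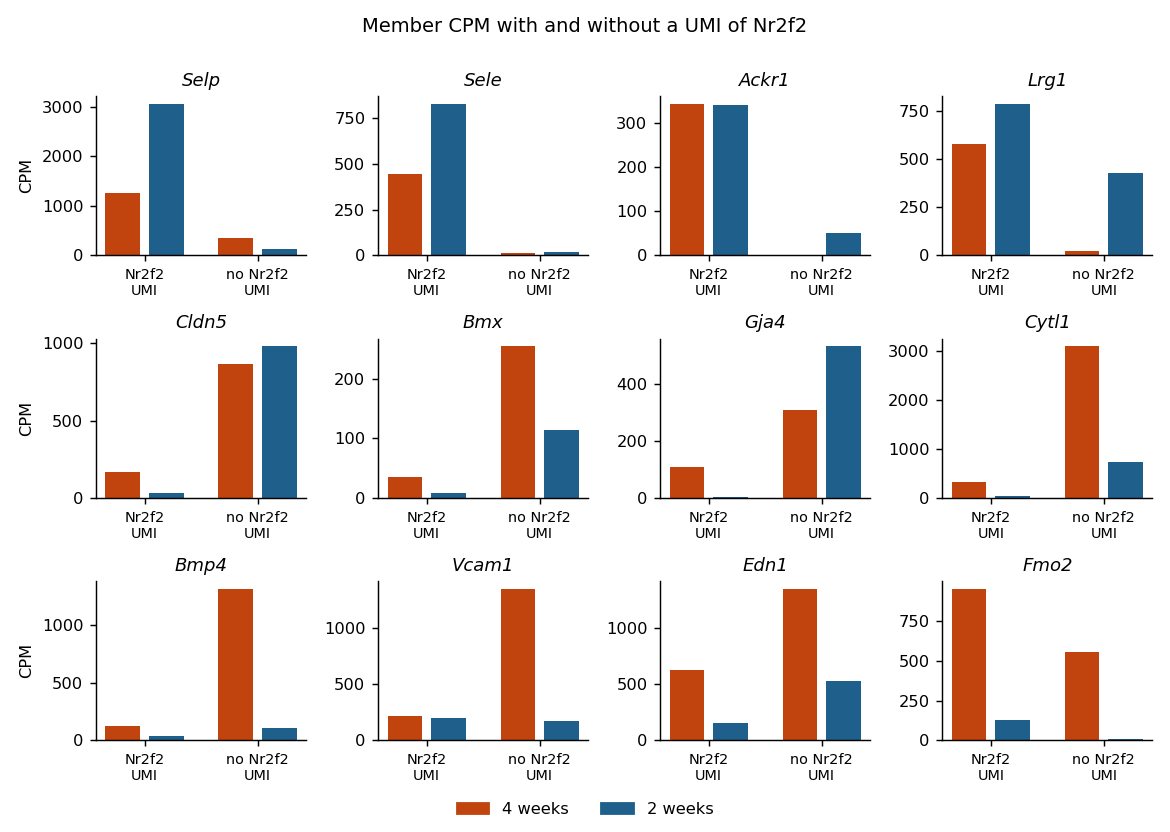
CPM of 12 genes summed over members with a UMI of Nr2f2 (15 cells at 4 weeks, 28 at 2 weeks) and without (13 and 14 cells), 4 weeks in red to the left of 2 weeks in blue. Selp, Sele, Ackr1 and Lrg1 are higher with Nr2f2, and Cldn5, Bmx, Gja4 and Cytl1 are higher without. The 4-week level of Bmp4 and Vcam1 is mostly in members without Nr2f2, and for Vcam1 most of it is 134 UMIs in 1 cell.

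Genes of vessel tone and shear stress were higher for 2 of 12 and lower for 0, with a median of 0.57, where 4.65% of all genes were higher. The 2 were Edn1 and Ptgis, at 185 against 42.9 CPM. The flow-induced factors Klf2 and Klf4 were at 808 against 845 CPM (-0.06) and 616 against 684 CPM (-0.15), and the nitric oxide synthase gene Nos3 at 86.1 CPM (56.3 to 126) against 62.8 CPM (45.1 to 85.3). Cav1, the caveolin gene, was detected in 28 of 28 and 39 of 42 members at 987 against 586 CPM (0.75).

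Basement membrane genes were higher for 1 of 14 and lower for 2 (median -0.26), near the 4.65% and 10.0% of all genes. Col15a1 was at 169 CPM (126 to 222) in 11 members and 599 CPM (541 to 662) in 28 members, a ratio of -1.83, and the collagen IV genes Col4a2 and Col4a1 were at -1.10 and -0.93. In members with Pecam1 all 3 passed 2-fold, at -2.22, -1.31 and -1.09. Lamb2, a laminin chain gene, was at 162 against 76.6 CPM (1.08).

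Clotting genes split as well, with 2 of 10 higher and 3 lower (median -0.24), where 4.65% of all genes were higher and 10.0% lower. In members with Pecam1 1 of 9 was higher and 2 lower, where 5.68% and 8.93% of all genes were. F3, the tissue factor gene that starts coagulation, was at 13.2 against 41.4 CPM with 74.1% in 1 member at 2 weeks, and the urokinase receptor gene Plaur was at -1.76. The factor VIII gene F8 was at 66.2 against 21.5 CPM (1.63) and the protein C receptor gene Procr at 258 against 120 CPM (1.11). The ratio of Procr turned to -0.63 in the 9 and 20 members with under 3 UMIs of fibroblast genes.

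VEGF and angiopoietin genes and junction genes varied little beside these. Of all genes, 4.65% were higher and 10.0% lower, or 5.68% and 8.93% in members with Pecam1. Of 11 VEGF and angiopoietin genes, 1 was higher and 0 lower, and of 12 junction genes 0 passed 2-fold in either direction (1 was lower in members with Pecam1). The gene higher was Pgf, with 20 UMIs in 6 members at 4 weeks and 14 in 4 members at 2 weeks (1.63), a ratio that read -0.61 in members without Nr2f2. Kdr was at 156 CPM (114 to 207) and 230 CPM (195 to 270), a ratio of -0.56, and Tek at 159 against 149 CPM. Of 18 endothelial transcription factor genes, Lmo2 was higher (1.23) and Sox7 lower (-1.04). In the capillary list 1 of 7 genes was lower and 0 higher (median -0.82), near the 10.0% lower among all genes. In members with Pecam1 3 of 7 were lower (Rgcc, Cd36 and Tcf15), beside 8.93% of all genes. With all members the lower gene was Rgcc, at 19.9 against 101 CPM (-2.35). This ratio read 0.83 where members with 1 UMI of Ptprc were let in.

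Genes linked to a change of endothelium into mesenchymal cells gave different counts with and without the 6 members that lacked Pecam1. Of 12 measured, 3 were higher and 2 lower with all members, where 4.65% and 10.0% of all genes were. In members with Pecam1 6 were higher and 0 lower, where 5.68% and 8.93% of all genes were. Col1a1 was at 242 against 1074 CPM in all members (-2.15) and at 132 against 36.3 CPM in members with Pecam1 (1.86). Dcn was at 1357 against 141 CPM in members with Pecam1, with up to 210 and 30 UMIs of the 3 fibroblast genes in 1 cell. At 4 weeks 1 member with Pecam1 held 21 UMIs of Col1a1 and 85 of Dcn, and another held 10 and 194. No other member with Pecam1 had over 3 Col1a1 UMIs at 4 weeks. The part of these 2 members in the ratios was not tested. Acta2, the smooth muscle actin gene, had 80.5% of its UMIs at 4 weeks and 67.1% at 2 weeks in 1 member, and Tagln, with 178 UMIs in 11 members and 146 in 16, had 66.9% of them in 1 member at 4 weeks. Both genes were at least 2-fold higher at 4 weeks with all members, and their ratios read -3.85 (Acta2) and -0.12 (Tagln) in members with Nr2f2. In the same list Smtn had 11 and 36 UMIs, with Cnn1 and Myocd at 0 at 4 weeks. Vim was at 5634 against 6645 CPM, and the transcription factor gene Snai1 at 43.1 against 55.2 CPM.

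Proliferation genes were lower at 4 weeks for 8 of 9 (median -2.16), where 10.0% of all genes were lower. This count rested on few cells. At 2 weeks 1 member without Pecam1 held 61 of the 67 Top2a UMIs, and members with Pecam1 had 2 Top2a UMIs at 4 weeks and 0 at 2 weeks. In members with Pecam1 only 2 genes of the list had 20 UMIs, and neither passed 2-fold. A further 2-week member held 84.2% of the summed UMIs of 7 epithelial and parathyroid genes, which stood at 202 CPM in members at 4 weeks and 1238 CPM at 2 weeks.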

How the data were processed

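The authors deposited raw UMI counts for each gene in each barcode. Per the file headers these came from Cell Ranger 4.0.0, and the submitters' processing notes name the build mm10. A barcode was kept if it had 300 or more genes, 500 or more UMIs and no more than 10% of UMIs from mitochondrial genes. No doublets were removed. Scrublet (scanpy 1.11.5) marked 3 of 28 members at 4 weeks and 8 of 42 at 2 weeks, and removing them was an alternative. UMIs were summed over members and scaled to 1000000 (CPM). Intervals are 95% exact Poisson (CPM), conditional binomial (log2 ratios) or Clopper-Pearson (shares) and cover counting error only. A gene needed 20 UMIs, and 2-fold counted as a difference, with no test. A count of 0 was read as 3 in ratios. Calculations were tested on simulated data. Members, gene lists, markers and thresholds were chosen with earlier results of these data known.

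Named genes had 50 UMIs, 50 CPM in 1 library, a 2-fold ratio with an interval excluding 0, no member holding over 25% of UMIs in the higher library and a level there no lower than in other cells. The 12 highest and 12 lowest were taken. Some genes that met a rule are not reported here. Over other cells the 20 genes with the highest smaller ratio were taken, among those detected in 20% of members. List genes with 20 UMIs may be named. Genes with few UMIs, per-cell pairs, and the cells without Pecam1 were picked after values were seen. Of 27998 genes, 27645 matched GENCODE M21, which gives the positions. Python 3.11.15, numpy 2.4.6, pandas 2.3.3, scipy 1.17.1 and matplotlib 3.10.9 were used.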

Additional observations from a re-analysis of the deposited data

How the results depend on the processing

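Depth and cell number set the limits: 28 and 42 cells of 1 library each, where 1 cell can hold most UMIs of a gene. No paired analysis was possible because each time is 1 library and the labels give no replicate numbers. There were 297 genes at least 2-fold higher at 4 weeks and 640 genes at least 2-fold lower at 4 weeks, which became 603 and 1122 with a minimum of 10 UMIs and 112 and 237 with 50 UMIs. The higher count was 193 without members with 3 or more fibroblast UMIs, and the lower count 269 in members with no Nr2f2. Against leukocytes alone 703 genes were higher in members, not 466. Removing the highest Scrublet scores moved 67 results and reversed 0 of them, with 268 the same, and gave 333 higher and 483 lower genes. The splits by Nr2f2, by pan-endothelial genes and by Krt8, Bpifa1 or Top2a were chosen after seeing the data. Leaving out members with 3 or more fibroblast UMIs kept only 9 members at 4 weeks and 20 at 2 weeks. In these, ratios reversed for Fbln5 (-1.80), Col1a2 (1.82), Col3a1 (1.15), Tagln (-0.24) and Procr (-0.63). With at least 10 pan-endothelial genes, which here means with Pecam1, Col1a1 (1.86), Col1a2 (2.74) and Col3a1 (0.88) reversed, and with a minimum of 5 UMIs over Pecam1 and Cdh5 they read 1.53, 1.86 and 1.39. With no Nr2f2, Selp (1.39), Pgf (-0.61) and Col1a2 (1.81) reversed, and with Nr2f2, Acta2 (-3.85) and Tagln (-0.12). Rgcc (0.83) reversed with up to 1 UMI of Ptprc. The cause was not tested.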
